A study of Mus musculus with 6 samples.

Results

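The genes of Schwann cells and myelin described here in mouse skin were Mbp, Pmp22, Prx, Mal, S100b, Ngfr and Gap43. The genes were chosen by name, and every probe set whose only gene symbol was one of these names was taken, which gave 17 of the 45037 probe sets tested and 6 of the 7 genes. Prx, which encodes periaxin, is not analysed here. The study compared affected alopecic skin of 3 mice with alopecia areata, an autoimmune hair loss, and skin of 3 unaffected mice, with 1 array per mouse. All 6 mice were of the inbred strain C3H/HeJ, and total RNA of skin was measured. No treatment is named, and the labels do not give age, body site or hair cycle stage. Values are log2 RMA values, a scale on which a step of 1 is a doubling, and differences are alopecic minus unaffected.

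Schwann cells wrap the axons of peripheral nerves, and those around large axons build myelin, a stack of membrane that speeds conduction. Mbp encodes myelin basic protein, which holds the inner faces of the membrane together, Pmp22 encodes peripheral myelin protein 22, a tetraspan protein of compact myelin, and Mal encodes a small proteolipid of myelin and of epithelial apical transport. S100b encodes a calcium-binding protein used as a marker of Schwann cells and also made by melanocytes and fat cells. Ngfr encodes the low-affinity neurotrophin receptor p75, and Gap43 encodes a growth cone protein, and both are typical of Schwann cells that do not make myelin. In skin, such cells lie along dermal nerves and at the nerve endings that surround hair follicles.

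None of the 17 probe sets passed the test in the comparison of alopecic with unaffected skin. The threshold was an adjusted p of 0.05 in limma over all probe sets, and the lowest adjusted p of a member was 0.888. In the same fit 64 of 45037 probe sets passed, or 0.142%. No member probe set had an unadjusted limma p under 0.05 either, a mark that 5.82% of all probe sets reached. Of the 17 probe sets 14 had a lower mean in alopecic skin, where 54.9% of all probe sets did, but 8 of the 17 belong to Mbp and are not independent. In 2 of the 17 the arrays of the groups did not overlap, a share near the 11.9% found over all probe sets. The median log2 difference of the members was -0.71. Without unaffected replicate 3, the array described next, it was -0.21, and fewer of the 17 were lower. Because whole skin was measured, a lower value would not tell fewer Schwann cells from less RNA per Schwann cell. It would not tell either of them from a change in other cells that make a member, such as melanocytes and fat cells for S100b.

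One control array stood apart. In unaffected replicate 3 the 19 measured genes of hair shaft and root sheath differed from the mean of the other 2 unaffected arrays by a median of -7.58 on the log2 scale. Melanocyte genes differed there by -2.89 (11 genes) and fat cell genes by -1.42 (10 genes), while skeletal muscle genes were higher by 2.38 (12 genes), each as the list's median. This array was highest of the 6 for 31.7% of all probe sets and for 11 of the 17 members. As a sign of RNA integrity, the beta-actin controls read 0.39 log2 units more at the 3' end than at the 5' end in this array, and between 0.47 and 1.30 more in the others. The Gapdh controls differed by 0.31 in this array and by -0.08 to 0.52 in the others. By beta-actin the array had the smallest difference, and by Gapdh it lay within the range of the others. Member values are therefore given with and without it, and those of lists and other genes where leaving it out turned the direction or moved the value by over 1.5 times.

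**Figure D1:**
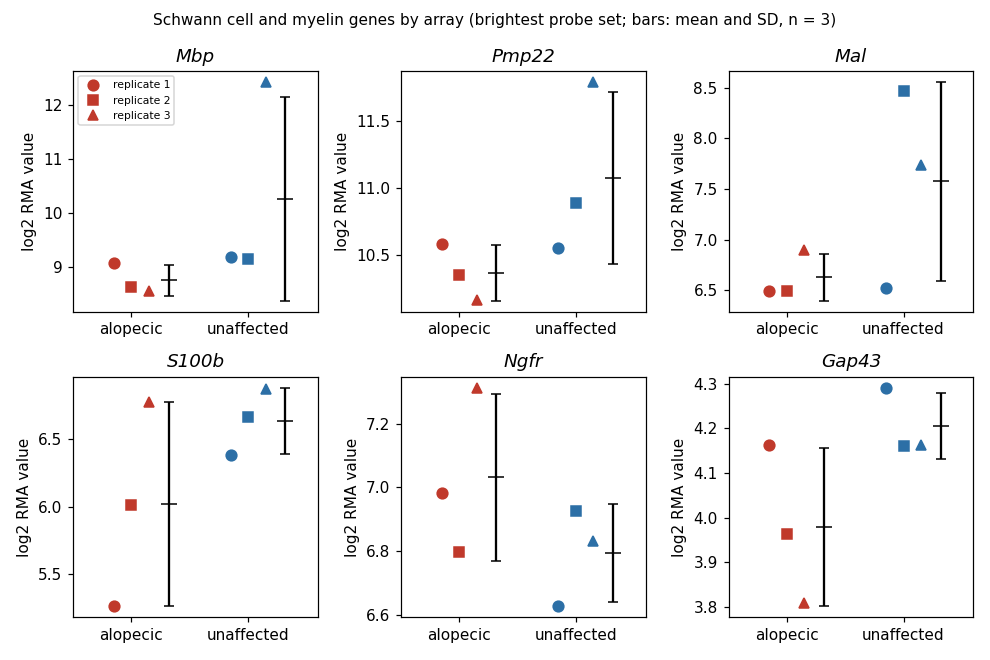
Log2 RMA values (vertical axis) of the brightest probe set of each of the 6 measured genes, by group, with a symbol for each replicate and the mean and SD over 3 arrays beside it. Mbp stood at 12.44 in unaffected replicate 3 and between 8.54 and 9.19 in the other arrays, and for 5 of the 6 genes the alopecic and unaffected ranges overlapped.

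Sequence before the start site is shown for the genes other than Mbp whose mean was lower in alopecic skin and for which a promoter was listed, since these are the members a reader may want to compare with Mbp. The sequences are from RefSeq (build GRCm38.p6) and run 5' to 3' from 250 bases before to 50 bases after each start site, with any GC box, the letters GGGCGG on either strand, in capitals. Pmp22 has 4 listed start sites, of which the 2 farthest upstream are printed. The windows of the other 2 overlap each other and are given by their content only.
Pmp22 first start site, chr11:63128732-63129031, plus strand: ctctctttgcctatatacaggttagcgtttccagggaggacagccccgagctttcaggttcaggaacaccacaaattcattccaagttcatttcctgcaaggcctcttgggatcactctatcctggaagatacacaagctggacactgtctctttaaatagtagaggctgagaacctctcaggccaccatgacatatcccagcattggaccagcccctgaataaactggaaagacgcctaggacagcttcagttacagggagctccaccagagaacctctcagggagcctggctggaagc
Pmp22 second start site, chr11:63131207-63131506, plus strand: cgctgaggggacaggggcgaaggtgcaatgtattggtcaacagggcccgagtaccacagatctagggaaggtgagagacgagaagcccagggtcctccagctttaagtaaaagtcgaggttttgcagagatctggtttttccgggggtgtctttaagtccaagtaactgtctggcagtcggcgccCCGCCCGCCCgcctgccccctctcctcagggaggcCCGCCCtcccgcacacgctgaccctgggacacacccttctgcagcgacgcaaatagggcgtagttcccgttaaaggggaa
Mal, chr2:127656646-127656945, minus strand: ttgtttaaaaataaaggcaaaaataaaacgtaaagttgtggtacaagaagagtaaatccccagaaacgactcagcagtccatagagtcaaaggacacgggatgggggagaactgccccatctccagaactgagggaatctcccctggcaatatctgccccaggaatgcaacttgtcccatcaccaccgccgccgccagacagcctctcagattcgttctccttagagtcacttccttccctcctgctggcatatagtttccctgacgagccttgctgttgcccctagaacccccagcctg
S100b, chr10:76253586-76253885, plus strand: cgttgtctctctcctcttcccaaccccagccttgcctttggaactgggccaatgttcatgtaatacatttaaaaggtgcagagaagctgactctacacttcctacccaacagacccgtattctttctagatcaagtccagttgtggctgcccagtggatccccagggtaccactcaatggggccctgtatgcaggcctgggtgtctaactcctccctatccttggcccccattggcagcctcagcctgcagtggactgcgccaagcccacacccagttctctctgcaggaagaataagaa
The first Pmp22 window had a GC content of 50.7% and no GC box, while the second had 60% and 3 GC boxes. The third had 66.3% and no GC box, and the last had 72.3% and 3 GC boxes. In rats and humans Pmp22 is known to use separate promoters for myelinating Schwann cells and for other tissues. The single Pmp22 probe set gives 1 value for the gene, so the array values are not split by start site. The Mal and S100b windows, with 51% and 53.7% GC, held no GC box, whereas 35.7% of the 32851 listed promoters of this length did. The letters ACAAAG or ACAATG, a core bound by SOX factors, GTGGGCG, a core bound by EGR factors, and TATAAA were looked for on both strands. None of the 4 windows held any of them, against 28.6%, 7.97% and 13.6% of all listed promoters. These are matches of letters only.

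Mbp was the member whose arrays differed most, and most of the difference lay in 1 unaffected mouse. Its brightest probe set, 1433532_a_at, stood at 9.07, 8.63 and 8.54 in alopecic replicates 1, 2 and 3. In unaffected replicates 1, 2 and 3 it stood at 9.19, 9.15 and 12.44. The alopecic arrays all lay below the unaffected ones, by 0.079 between the nearest arrays, and unaffected replicate 3 was far above the rest. The group means were 8.75 ± 0.28 and 10.26 ± 1.89 (SD, n = 3 each), a log2 difference of -1.51 (SE 0.91, limma adjusted p = 0.908), or 2.85-fold lower. The exact two-sided permutation p was 0.1, the smallest that 3 arrays against 3 allow. Without unaffected replicate 3 the log2 difference was -0.42 (SE 0.18, limma adjusted p = 0.572).

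The other probe sets of Mbp separated into those that shared this array and those that did not. The array design holds 8 for the gene, which gives rise to several spliced forms of the myelin protein and, from an upstream start, to golli transcripts found in immune cells and neurons. The forms that each probe set reads were not examined. Those with names ending in _x_at are built by the array maker's convention to include probes that may match other sequences, and _a_at marks probes shared by transcripts of 1 gene. In unaffected replicate 3 the probe set 1436201_x_at was 14.4-fold above the mean of unaffected replicates 1 and 2. The corresponding folds were 12.7 for 1454651_x_at, 11.8 for 1456228_x_at, 11.6 for 1419646_a_at, 9.64 for 1433532_a_at and 5.06 for 1451961_a_at. These 6 probe sets therefore gave the same picture at different brightness. Among all 45037 probe sets, 0.295% were raised in that array by as much as 1433532_a_at was, and 0.109% by as much as 1436201_x_at.

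The 2 remaining probe sets of Mbp behaved otherwise. Probe set 1425264_s_at, the second brightest, stood at 9.33, 8.72 and 8.69 in the alopecic and at 8.52, 8.82 and 9.49 in the unaffected arrays. Unaffected replicate 3 was its highest array by 0.16, the groups overlapped, and the log2 difference was -0.03 (SE 0.30). Probe set 1425263_a_at ranged from 6.74 to 6.78 in alopecic and from 6.49 to 6.84 in unaffected skin, with unaffected replicate 3 at 6.66, inside the range of its group. Its log2 difference was 0.10 (SE 0.12).

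**Figure D2:**
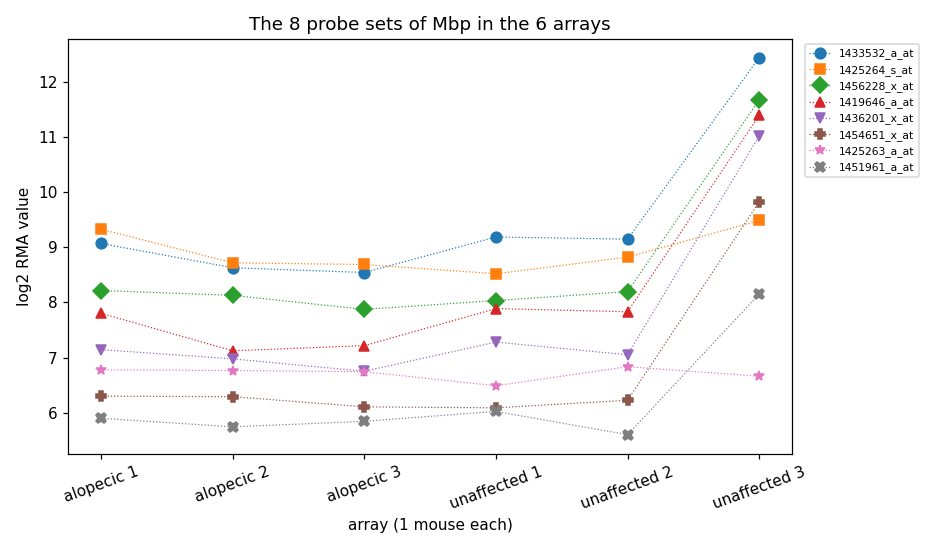
Log2 RMA values (vertical axis) of the 8 Mbp probe sets in the 6 arrays (horizontal axis), with dotted lines joining values of 1 probe set only to guide the eye. Unaffected replicate 3 is far above the other arrays in 6 probe sets, slightly above in 1425264_s_at and within the others in 1425263_a_at.

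Among the other 5 arrays the Mbp probe sets spanned between 0.21 log2 units, for 1454651_x_at, and 0.81, for 1425264_s_at, with 0.64 for the brightest and 0.77 for 1419646_a_at. Without unaffected replicate 3 the log2 differences of the 8 probe sets ran from -0.48 for 1419646_a_at to 0.24 for 1425264_s_at, with 4 below and 4 above 0, and the lowest limma adjusted p was 0.572. The mean over the 8 probe sets, taken as 1 value for the gene, differed by -0.97 over the 6 arrays, as against -1.51 for the brightest.

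Pmp22 was the brightest member and followed Mbp across the arrays. It was measured by probe set 1417133_at, whose mean over the 6 arrays exceeded that of 94.0% of all probe sets. It stood at 10.58, 10.35 and 10.17 in the alopecic and at 10.55, 10.89 and 11.79 in the unaffected replicates 1 to 3. Unaffected replicate 3 was again the highest, and unaffected replicate 1 lay inside the alopecic range. The log2 difference was -0.71 (SE 0.33, limma adjusted p = 0.888) between means of 10.37 ± 0.21 and 11.08 ± 0.64 (SD, n = 3 each). Without unaffected replicate 3 it was -0.35 (SE 0.18, limma adjusted p = 0.624). Over the 6 arrays Pearson's r between Pmp22 and the brightest Mbp probe set was 0.96, a description that rests largely on unaffected replicate 3, the array both share at the top.

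Mal had a different pattern, in which 2 of the unaffected mice were high. Probe set 1432558_a_at stood at 6.496, 6.49 and 6.89 in alopecic replicates 1 to 3 and at 6.52, 8.47 and 7.74 in unaffected replicates 1 to 3. Probe set 1417275_at stood at 6.11, 5.70 and 6.30 and at 5.70, 7.87 and 8.25. In both, unaffected replicates 2 and 3 lay above every alopecic array and unaffected replicate 1 did not, so the groups overlapped. The log2 differences were -0.95 (SE 0.49, limma adjusted p = 0.897) and -1.24 (SE 0.68, limma adjusted p = 0.908), or 1.93-fold and 2.36-fold lower in the alopecic mean. The value of the brighter probe set depended on single controls, at -0.50 without unaffected replicate 2 and -1.48 without unaffected replicate 1. Without unaffected replicate 3 the difference of the brighter probe set was -0.87. The difference of the dimmer one was -0.75 without unaffected replicate 3 and -2.02 without unaffected replicate 1.

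S100b, the calcium-binding marker, was near the array medians of 6.11 to 6.17. Probe set 1434342_at stood at 5.27, 6.01 and 6.78 in alopecic replicates 1 to 3 and at 6.38, 6.66 and 6.87 in unaffected replicates 1 to 3. In this probe set the alopecic values spread more (SD 0.76) than the unaffected ones (SD 0.24), and alopecic replicate 3 was within the unaffected range. The dimmer 1419383_at stood at 5.38, 5.47 and 6.32 in alopecic and at 5.77, 6.501 and 6.81 in unaffected replicates 1 to 3, with SDs of 0.52 and 0.53. The log2 difference was -0.62 (SE 0.39, limma adjusted p = 0.908) and that of 1419383_at was -0.64 (SE 0.36, limma adjusted p = 0.908). That of 1434342_at was -0.24 without alopecic replicate 1 and -0.998 without alopecic replicate 3. Without unaffected replicate 3 the differences of 1434342_at and 1419383_at were -0.50 and -0.41. Melanocytes and fat cells also make S100b. The mean level of the 11 melanocyte genes ran from 6.15 to 8.88 in alopecic and from 6.09 to 9.90 in unaffected arrays, and that of the 10 fat cell genes from 8.95 to 9.88 and from 9.05 to 10.62. Their part in the S100b values was not tested.

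Ngfr and Gap43, the members typical of Schwann cells without myelin, showed small differences. Ngfr, by its brightest probe set 1454903_at, stood at 6.98, 6.80 and 7.31 in alopecic and at 6.63, 6.93 and 6.83 in unaffected replicates 1 to 3, so that the ranges overlapped. It was the 1 gene of the 6 whose alopecic mean was the higher, by a log2 difference of 0.24 (SE 0.17, limma adjusted p = 0.908), with 0.10 without alopecic replicate 3 and 0.15 without unaffected replicate 1. Ngfr differed by 0.25 without unaffected replicate 3. Its other probe sets, 1450177_at and 1421241_at, lay between 4.49 and 4.75, below the median of every array, and differed by 0.07 and -0.05. Gap43 was dimmer still, below the median of every array. Probe set 1423537_at stood at 4.16, 3.96 and 3.81 in alopecic and at 4.29, 4.16 and 4.16 in unaffected replicates 1 to 3, and 88.7% of probe sets had a higher mean. The highest alopecic and the lowest unaffected values were alike. Its log2 difference was -0.23 (SE 0.12, limma adjusted p = 0.908), with -0.14 without alopecic replicate 3 and -0.25 without unaffected replicate 3. At such a level RMA compresses differences, and no detection calls were used.

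**Figure D3:**
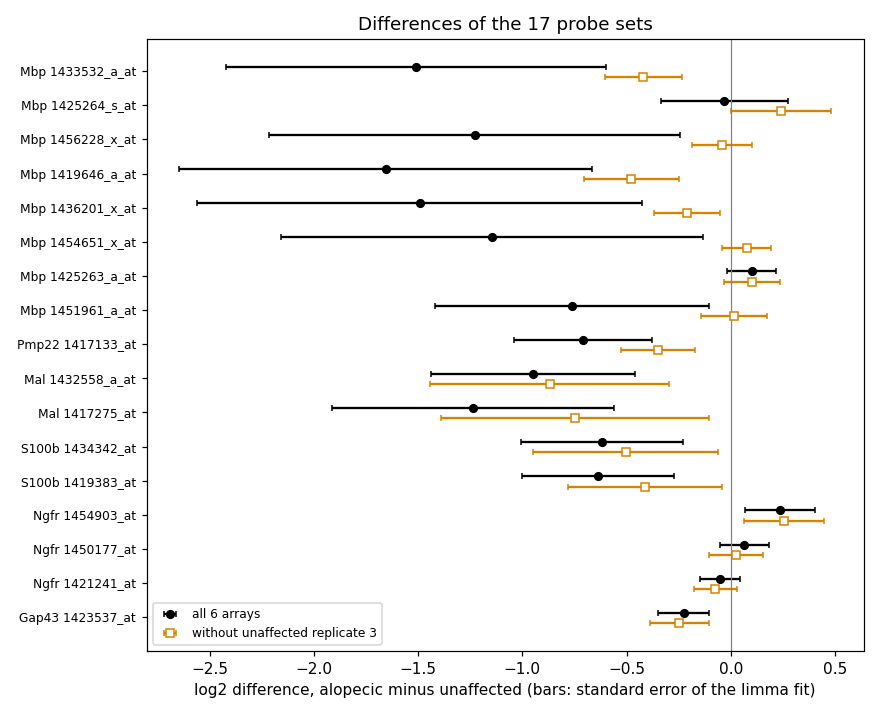
Log2 difference, alopecic minus unaffected (horizontal axis), of each of the 17 probe sets with the standard error of the limma fit, over all 6 arrays (filled circles) and without unaffected replicate 3 (open squares). The 5 Mbp differences of -1.15 to -1.66 lay between -0.48 and 0.075 without that array, whereas those of S100b, Ngfr and Gap43 moved by less than their standard errors.

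Each probe set has its own response, so patterns across arrays are compared here and not levels between genes. The genes most like each member were taken by Pearson's r with its brightest probe set over the 6 arrays, among genes with a mean of at least 7. For Mbp they were Mn1 (r = 0.996), Klhdc1 (0.995) and Lpin1 (0.995), and for Pmp22 Cbx7 (0.998), Ifrd1 (0.994) and Slc25a25 (0.989). For Mal they were Hbs1l (0.993), Rbm18 (0.975) and Cog1 (0.960), for S100b Scaf8 (0.981), Nop10 (0.980) and Plbd2 (0.968), for Ngfr Tle1 (0.974), Gsto1 (0.973) and Efna1 (0.966), and for Gap43 9230114K14Rik (0.996), Rnf13 (0.994) and P3h4 (0.985). The points share arrays and normalization, and 10373 or 10374 genes were searched for each member, so high values of r arise easily. Between the members themselves r ran from -0.77, for Ngfr with Gap43, to 0.96, for Mbp with Pmp22.

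Genes of the Schwann cell lineage other than the members did not pass the test. Counts of genes are from a fit with 1 probe set per gene, in which 50 of 18193 genes passed, or 0.275%. Of 16 measured lineage genes 0 passed, 9 were lower and 7 higher, and 3 had an unadjusted limma p under 0.05, as had 7.15% of all genes. Their median log2 difference was -0.05, with -0.01 over all genes, and -0.14 without unaffected replicate 3. With 1 array left out it lay between -0.24, without alopecic replicate 2, and 0.04, without alopecic replicate 1. Sox10, the transcription factor that specifies the lineage, stood at 6.98, 7.40 and 7.68 in alopecic and at 7.57, 7.24 and 7.77 in unaffected replicates 1 to 3, and differed by -0.18 (SE 0.23), or by -0.05 (SE 0.25) without unaffected replicate 3. All 6 values lay above the array medians. Unaffected replicate 3 was its highest array by 0.091, a small margin beside that of Mbp. Of the 3 genes with an unadjusted limma p under 0.05, Cdh19 and Scn7a were named after their values were seen. Cdh19, a cadherin of Schwann cell precursors, differed by -0.68 (SE 0.22, limma adjusted p = 0.590). Scn7a, a sodium channel of Schwann cells and other glia, differed by -0.53 (SE 0.18, limma adjusted p = 0.618), and Egr2, which drives myelin genes and is also expressed in hair follicles and lymphocytes, by 1.03 (SE 0.29, limma adjusted p = 0.516).

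The other brightest genes of the lineage list are shared with epithelium. Tfap2a, a transcription factor of neural crest and epidermis, differed by 0.48 (SE 0.22), and by 0.32 (SE 0.20) without unaffected replicate 3. Erbb3, the neuregulin receptor, differed by 0.10 (SE 0.21), and by -0.09 (SE 0.16) without that array. Pou3f1, which precedes Egr2 in Schwann cells and is made in epidermis, differed by 0.08 (SE 0.18), and by 0.03 (SE 0.20) without it.

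Myelin genes other than the members were measured for 19 genes, of which 0 passed, 14 were lower and 5 higher, with a median log2 difference of -0.19, and 2 had an unadjusted limma p under 0.05. The median was -0.11 without unaffected replicate 3 and -0.29 without alopecic replicate 2. The brightest were Cd9 at -0.27 (SE 0.16) and Cd82 at -0.19 (SE 0.19), tetraspanins of many cell types, Fa2h, which makes hydroxylated fatty acids for myelin and for sebum, at 0.43 (SE 0.57), and Cnp, a phosphodiesterase of myelinating cells that also responds to interferon, at 0.46 (SE 0.40). Without unaffected replicate 3 Fa2h turned to -0.13 (SE 0.38) and Cnp stood at 0.89 (SE 0.21, limma adjusted p = 0.309). In unaffected replicate 3, 10 of the 19 were at their highest of the 6 arrays, where 29.1% of all genes were. That was not particular to myelin genes. The same held for 10 of 17 genes of axons and sensory neurons, 10 of 16 of the periaxin and dystroglycan complex and 12 of 12 of skeletal muscle. It held for 4 of 16 lineage genes and 0 of 6 relatives of Pmp22. Some of the 10 myelin genes are given here, named after their values were seen. Ncmap, a small myelin protein of Schwann cells, stood at 6.39, 7.27 and 9.003 in unaffected replicates 1 to 3 and between 6.26 and 7.23 in alopecic arrays. Pmp2, a fatty acid carrier of peripheral myelin, stood at 4.81, 5.07 and 6.19 and between 4.80 and 4.98. Drp2, which binds periaxin at the Schwann cell surface, stood at 5.96, 5.99 and 6.86 and between 5.87 and 6.03. Mag, an adhesion molecule of the innermost myelin turn, stood at 4.88, 4.99 and 5.35 and between 4.71 and 4.90. The rest of the 19, most of them also named after their values were seen, were not highest in that array. Against the average of unaffected replicates 1 and 2, Fa2h differed there by -1.69, Cadm4 by -0.39, Cntn2 by -0.38 and Opalin by -0.33. Gjb1, a gap junction protein, differed by -0.26, Cd82 by -0.24, Cd9 by -0.16, Gjc3 by -0.07 and Ugt8a by -0.003.

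Markers that define central myelin were dim. Mog and Mobp, chosen as defining oligodendrocyte genes, lay between 3.48 and 3.93 and between 4.55 and 4.76, and 4 of the 6 genes of that list were below the median of every array. Of the 19 other measured myelin genes 6 were below it too, so dimness was not particular to central markers. Of 17 genes of axons and sensory neurons 12 were below the median of every array, and 0 passed or had an unadjusted limma p under 0.05, with a median log2 difference of -0.17. That median was -0.10 without unaffected replicate 3 and -0.10 without unaffected replicate 1. With dim genes left out only Stmn1 remained, at 0.57, so that filter gives no value for the list. The mean level of the 17 genes ran from 5.32 to 5.51 in alopecic and from 5.48 to 5.65 in unaffected arrays. Map1b, a microtubule protein of axons, differed by -0.51 (SE 0.27) and Stmn1, also a gene of dividing cells, by 0.57 (SE 0.60), or 0.11 (SE 0.55) without unaffected replicate 3.

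**Figure D4:**
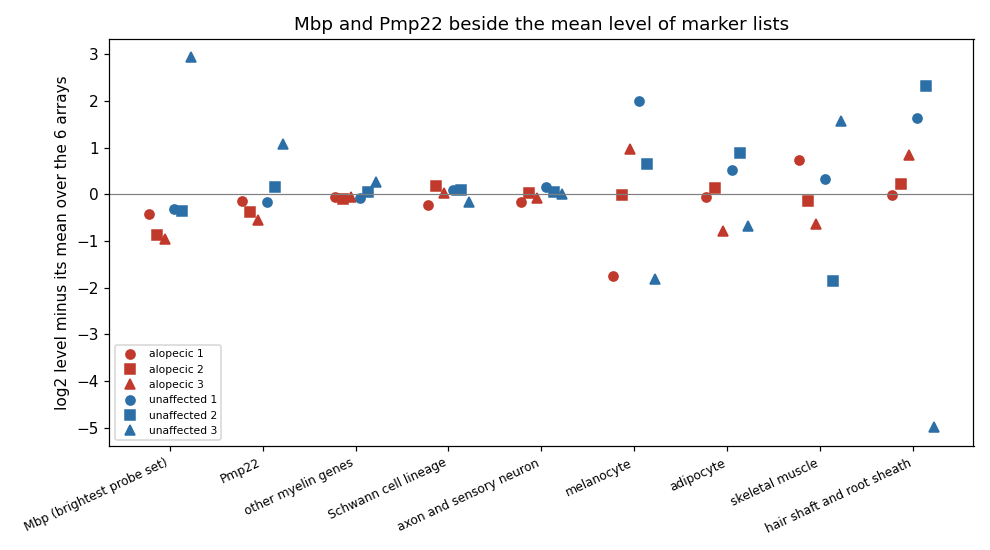
Log2 level of Mbp and Pmp22, and mean log2 level of the genes of 7 marker lists, in each array, minus the mean over the 6 arrays (vertical axis), with alopecic arrays in red and unaffected arrays in blue. In unaffected replicate 3 Mbp, Pmp22, the other myelin genes and skeletal muscle genes are at their highest and hair genes at their lowest. Before the mean was taken off, the Schwann cell lineage list ran from 7.47 to 7.87 and the axon list from 5.32 to 5.65. The other myelin genes ran from 7.07 to 7.44, a range no wider than that of the lineage list.

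Partners and relatives of the members were examined by their roles. An unadjusted limma p under 0.05 was reached by 7.15% of all genes. In these lists at most 3 genes reached it, with 3 of 14 relatives of Mal and 3 of 16 genes of repair and non-myelinating Schwann cells. In those of Pmp22 and S100b relatives 0 genes reached it. Of 15 measured neurotrophins, co-receptors and adaptors of Ngfr 0 passed (8 higher, 7 lower, median 0.00, or -0.03 without unaffected replicate 3). The adaptor Bex3 differed by 0.10 (SE 0.24), and by -0.12 (SE 0.18) without that array, and the kinase Irak1 by 0.34 (SE 0.18). Of 16 genes of the periaxin and dystroglycan complex and its basal lamina 0 passed and 12 were lower (median -0.21). Without unaffected replicate 3, 10 of the 16 were lower and the median was -0.06. Itga6, a laminin receptor subunit, differed by 0.01 (SE 0.25) and the linker Ezr by -0.01 (SE 0.28), and without that array by 0.22 (SE 0.21) and -0.29 (SE 0.19). Lama2, the laminin chain of the Schwann cell and muscle basal lamina, named after its values were seen, ran from 7.997 to 8.59 in alopecic and from 9.06 to 9.26 in unaffected arrays, without overlap, and differed by -0.78 (SE 0.18, limma adjusted p = 0.377). Groups did not overlap in 13.1% of all genes and in 2 of these 16. They did not overlap in 6 of the 14 relatives of Mal, 5 of the 16 repair and non-myelinating genes and 0 of the 6 relatives of Pmp22.

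Of 15 regulators of myelin genes 0 passed (median 0.10, and between 0.05 and 0.21 with 1 array left out), with Yap1 at 0.10 (SE 0.14), and of 11 genes of neuregulin signalling 0 passed (median 0.08, but -0.09 when alopecic replicate 3 and -0.03 when unaffected replicate 2 was left out), with the scaffold Dlg1 at 0.09 (SE 0.15), or 0.05 (SE 0.17) without unaffected replicate 3. Of 16 genes of repair and non-myelinating Schwann cells 0 passed (9 higher, 7 lower, median 0.17, but -0.17 and -0.04 when alopecic or unaffected replicate 2 was left out, and -0.05 with dim genes left out). The immediate early genes Fos and Jun, which are in that list and are induced in many cells, differed by 0.12 (SE 1.11) and -0.22 (SE 0.66). Both were highest in unaffected replicate 3, at 13.87 and 13.15, and without it they differed by 1.23 (SE 0.73) and 0.55 (SE 0.18, limma adjusted p = 0.421). The genes of that list with an unadjusted limma p under 0.05 were Scn7a, given above, Ccl2 and Lif, the last 2 named after their values were seen. Ccl2 differed by 2.61 (SE 0.39, limma adjusted p = 0.104) and Lif by 0.95 (SE 0.21, limma adjusted p = 0.327), both without overlap of the groups. Of 14 relatives of Mal in the MARVEL family 0 passed (median -0.17), with Plp2 at -0.18 (SE 0.11) and Myadm at 0.47 (SE 0.20). Without unaffected replicate 3 the median was -0.30, with 11 of the 14 lower, and Myadm stood at 0.26 (SE 0.12). The median was -0.06 without alopecic replicate 2 and -0.02 with dim genes left out. In unaffected replicate 3, where the dimmer Mal probe set was at its highest, 1 of the 14 relatives was. Of 6 relatives of Pmp22 0 passed (median -0.11), with Perp at -0.13 (SE 0.12) and Emp2 at 0.10 (SE 0.25), and 0 of the 6 were highest in that array. Without it Emp2 turned to -0.17 (SE 0.12), the median was -0.15 and 5 of the 6 were lower, while without alopecic replicate 3 the median was 0.02.

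Of 9 relatives of S100b 0 passed (median -0.04), with S100a6 at -0.04 (SE 0.14) and S100a16 at 0.37 (SE 0.35), and without unaffected replicate 3 they stood at -0.11 (SE 0.14) and 0.01 (SE 0.22). The median was 0.07 without alopecic replicate 3, 0.06 without unaffected replicate 2 and 0.02 without alopecic replicate 2. Of 6 relatives and partners of Gap43 0 passed, and the median was 0.49, or 0.14 without unaffected replicate 3. Marcks, a membrane substrate of protein kinase C, differed by 0.85 (SE 0.26) and Marcksl1 by 1.28 (SE 0.73), which became 0.57 (SE 0.12, limma adjusted p = 0.288) and 0.54 (SE 0.46) without that array. By contrast, 6 of 11 genes of T cells and the interferon gamma response rose in the same fit, with a median of 2.93. Leaving out alopecic replicate 3 gave a count of 3, and leaving out unaffected replicate 2 gave 2. Igtp, an interferon-induced GTPase, rose by 4.40 (SE 0.20, limma adjusted p = 0.00342).

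Skeletal muscle genes were high and hair genes low in the array in which Mbp was high. The 12 skeletal muscle genes were all at their highest in unaffected replicate 3, with a mean level of 14.48 there, 13.25 and 11.06 in unaffected replicates 1 and 2 and 12.28 to 13.66 in alopecic arrays. In alopecic replicates 1 to 3 the muscle level was 13.66, 12.77 and 12.28, the same order as that of Mbp at 9.07, 8.63 and 8.54. The hair level ran in the reverse order, at 10.69, 10.93 and 11.56. An order over 3 arrays is a description only. In unaffected replicates 1 and 2, whose muscle levels were 2.19 apart, Mbp stood at 9.19 and 9.15. The 19 hair genes had a mean level of 12.35, 13.04 and 5.72 in unaffected replicates 1 to 3 and 10.69 to 11.56 in alopecic arrays. The mean level of the 11 vessel and smooth muscle genes ran from 8.45 to 8.94 over the 6 arrays, but single genes moved in opposite directions. In unaffected replicate 3, 6 of the 11 lay above the mean of unaffected replicates 1 and 2 and the rest below. Des differed there by 3.00 and Acta2 by -2.18. Cdh5 and Tagln, named after their values were seen, differed by 1.58 and -1.72. The list mean therefore does not show that vessel and smooth muscle genes were constant. The part of tissue composition in the Mbp and Pmp22 values was not tested.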

How the data were processed

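Total RNA from skin was labelled with a 3' IVT Express kit, per the labels' protocols, and hybridised to 1-colour arrays, 1 per mouse. The authors deposited log2 RMA values (background-corrected, normalized between arrays and summarised per probe set), per the submitters' processing notes. The version of RMA and the authors' genome build are not stated in the labels. Values ran from 3.07 to 14.92 and were used as deposited. Arrays have no read depth, and 3 per group limit the precision.

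Of 45101 probe sets 64 controls were left out, and 34945 had 1 symbol in the platform annotation, updated through RefSeq gene identifiers. Members were tested in limma 3.58.1 (R 4.3.3; lmFit, eBayes, two-sided) over 45037 probe sets, and lists over 18193 genes with the brightest probe set each, with Benjamini-Hochberg adjustment in each fit. The limma code was tested on simulated data. Differences have standard errors of the fit. Each list was described by counts and its median, without members.

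The members and lists were chosen with earlier results of these data known. Named genes are the members, up to 4 genes of a list past the threshold or otherwise the 2 with the highest mean (4 for the lineage and myelin lists), and the 3 genes most like each member. Genes named outside this rule are said to be so where they appear. Alternatives were mean values over probe sets, a filter on dim values, other normalizations, an intensity trend, array weights, the replicate number as a block, and each array left out.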

Additional observations from a re-analysis of the deposited data

How the results depend on the processing

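No member passed the threshold under any alternative run, and the brightest probe set of each gene kept its direction in all that gave a value. In the fit with 1 value per gene, leaving out genes below the median level left Mal, S100b, Ngfr and Gap43 without a value, and over probe sets it left out Gap43, both dimmer probe sets of Ngfr and 1419383_at of S100b. With array weights in the gene fit the log2 differences of Mbp, Pmp22, Mal, S100b, Ngfr and Gap43 were -0.75, -0.44, -0.34, -0.12, 0.41 and -0.35, and with mean values over probe sets Ngfr differed by 0.08. Dimmer probe sets near 0 changed sign: 1425264_s_at of Mbp was at 0.11 with array weights and between -0.24 and 0.24 with 1 array left out. With 1 array left out 1454651_x_at of Mbp lay between -1.79 and 0.075, 1451961_a_at of Mbp between -1.26 and 0.017, and 1421241_at of Ngfr between -0.079 and 0.0037. Of 285 list medians under the alternatives 14 moved by more than the spread between arrays, and of 285 counts of list genes past the threshold 4 moved by over 1.5 times. The cause was not tested.

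Over all genes 48 were higher and 2 lower past the threshold. With array weights these counts were 126 and 13, and with 1 array left out they lay between 4 and 34 and between 0 and 5. The lowest counts were without unaffected replicate 2 (4 higher) and unaffected replicate 1 (7 higher). With the replicate number as a block 0 genes were higher and 0 lower past the threshold in limma, and 873 genes had an unadjusted p under 0.05, against 1301 without the block. Nothing in the labels links animals of the same number. The deviations of same-numbered arrays from their group means correlated at -0.13, -0.20 and -0.33. These values cannot settle whether the arrays are paired. Deviations within a group of 3 depend on each other, and unaffected replicate 3 held 42.2% of the squared deviation. Signal near background limits what can be said of Gap43 and of the dimmer probe sets of Ngfr.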
